A study of Arabidopsis thaliana with 16 samples.

Results

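The libraries labelled mctp3-2, a single mutant of the Arabidopsis thaliana gene MCTP3, were set against wild-type (WT) libraries made from roots of the same age. The comparison used 4 mctp3-2 and 4 WT libraries, 8 of the 16 in the series, and all genes that reached an FPKM of 1 in 4 or more of those 16, which gave 19239 of 33560 genes. FPKM counts fragments scaled to the length of the transcript and to the mapped fragments of the library, so levels can be compared between genes. All plants were Col-0, 5 days old when their roots were taken, and raised on plates under long days. The mctp3-2 plants belong to line GABI_285E06, and the WT plants are given as Col-0 wild type. The other 8 libraries came from the mctp3-2/mctp4-1 double mutant (4 libraries, named double below) and from mctp4-1 (4 libraries, line Salk_089046C). Both line codes are those of T-DNA insertion collections. The labels give 1 line for each allele, so a change caused by the allele and one caused by anything else that line GABI_285E06 carries cannot be told apart. The labels number the libraries of each genotype 1 to 4 without saying whether separate plants or days stand behind a number, so each p-value rests on the spread of these libraries, and that spread may be technical.

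MCTP proteins (multiple C2 domains and transmembrane region proteins) sit in the endoplasmic reticulum with their membrane-spanning end and reach the plasma membrane with their C2 domains. MCTP3 and its close relative MCTP4 are known as tethers that hold these membranes together inside plasmodesmata, the channels that join plant cells and carry sugars, hormones and signalling proteins through the root. They are regarded as overlapping in function, and the single mutants are the controls against which the growth defects of the double mutant are read.

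The FPKM of each of the 8 libraries summed to between 894309 and 1016220, with 18584 to 18785 genes at an FPKM of 1 or more. The share of FPKM outside protein-coding genes was 0.999 to 1.42% in the mctp3-2 libraries and 1.29 to 4.57% in the WT libraries, where WT replicates 1 and 4 stood at 4.57 and 3.96%. Summed FPKM of the green tissue markers, of which a root holds little, ranged from 391 to 622 in mctp3-2 and from 500 to 671 in WT. Log2 values of any 2 of the 8 libraries correlated at 0.960 to 0.988 across genes. Mapped read totals are not in the values used here, and whole fragments could not be recovered from them. The steps between low values put the depth of the other libraries at 0.889 to 1.57 times that of the library they were compared with.

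Very few transcripts separated mctp3-2 roots from WT roots. Out of 19239 genes, 6 were called at an adjusted p under 0.05 by limma, which is 0.0312% of those tested. MCTP3 rose (0.0052% called higher), and ALPHA-VPE, AT2G44970, AT5G35935, AT5G24240 and AT4G08093 fell (0.026% called lower). Libraries of the same number deviated together, and so, less closely, did replicate 1 with 2 and 3 with 4. A fit that also took the replicate number as a block called 11 genes (0.0572%), 3 higher (0.0156%) and 8 lower (0.0416%). The 6 were among them, and the 5 added were AT5G35940 and SCE1, which were higher in mctp3-2, and LAF1, AT4G04223 and AT5G38005, which were lower. At an unadjusted p under 0.05 there were 355 genes (1.85%) without the block and 1218 (6.33%) with it. The 4 mctp3-2 libraries lay above all 4 WT libraries for 291 genes (1.51%) and below all 4 for 65 genes (0.338%). These counts used FPKM as deposited, where 65.5% of all genes had a log2 difference above 0, beside 49.2% after scaling by the median of ratios. They were not repeated after scaling. The same fit called 5 genes for mctp4-1 against WT and 30 for the double mutant against WT.

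**Figure D1:**
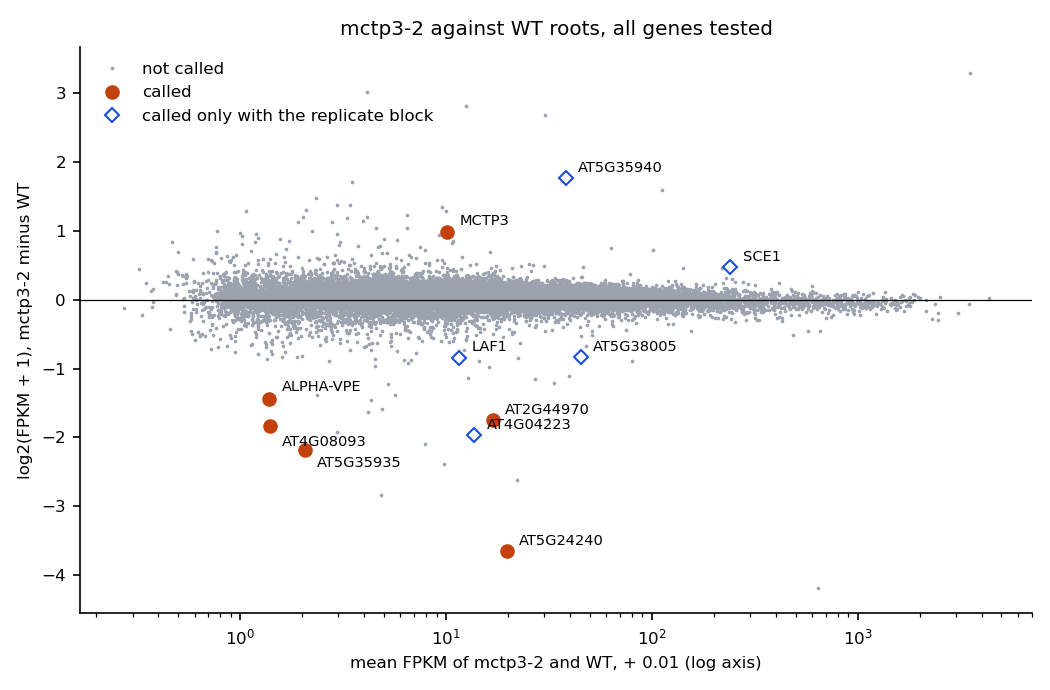
Mean FPKM of the mctp3-2 and WT libraries (horizontal, log axis, 0.01 added) against the difference in log2(FPKM + 1), mctp3-2 minus WT (vertical), for 19239 genes, each a point. Filled circles are the 6 genes called, open diamonds the 5 that the replicate block added, and 5 of the 6 called genes lie below 0.

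The targeted gene was not lowered in the libraries labelled mctp3-2. MCTP3 (AT3G57880; chr3:21430922-21434648 of TAIR10.1, minus strand; 2 to 3 exons) stood at 16.4, 13.3, 13.1 and 12.4 FPKM in mctp3-2 replicates 1 to 4, against 6.07, 6.39, 6.51 and 6.61 FPKM in WT. All 4 mctp3-2 libraries were above all 4 WT libraries. The means were 13.8 ± 1.78 FPKM in mctp3-2 and 6.39 ± 0.236 FPKM in WT (SD, n = 4 each), a 2.16-fold ratio, and the log2 difference of 0.99 ± 0.11 (SE; 95% interval 0.76 to 1.23) had an adjusted p of 3.89e-04. Without WT replicates 1 and 4, the libraries high in noncoding FPKM, it was 0.98 (adjusted p = 0.0236, and 0.0702 with the block). A value per gene cannot separate transcript made before a disrupted site from transcript made after it, so the rise says nothing of whether full-length MCTP3 messenger was present. MCTP4 (AT1G51570), the relative altered by the other allele, was at 27.8, 26.9, 29.3 and 30.2 FPKM in mctp3-2, against 23.9, 22.9, 29.2 and 29.4 FPKM in WT. Its libraries overlapped, and the log2 difference was 0.12 (95% interval -0.21 to 0.45; adjusted p = 1.00). The longest stretch that MCTP3 and MCTP4 transcripts share is 2334 bases at 85.5% identity.

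SCE1 (AT3G57870; chr3:21428496-21430398, minus strand), which encodes the enzyme that conjugates SUMO to target proteins, is the next gene downstream of MCTP3 on the same strand and begins 523 bases beyond its end. It was at 307, 298, 250 and 268 FPKM in mctp3-2, against 218, 224, 176 and 186 FPKM in WT. Every mctp3-2 library was above every WT library, and in both genotypes replicates 1 and 2 were above replicates 3 and 4. The means were 281 ± 26.3 and 201 ± 23.4 FPKM (mctp3-2 and WT; SD, n = 4 each), and the log2 difference was 0.48 ± 0.10 (SE; adjusted p = 0.334 without the block and 0.0034 with it). Without the block it was called after quantile normalization (adjusted p = 0.00501), and with the block it was not called without WT replicates 1 and 4 (adjusted p = 0.195). A stretch of 276 bases is 95.7% identical to AT5G02244, but that gene was listed at 0 in all 8 libraries. No other tested neighbour of MCTP3 was called among the 5 annotated genes on each side. AT3G57890, which begins 3426 bases beyond the start of MCTP3, differed by 0.16 ± 0.11 (log2, SE), and the other 4 tested neighbours differed by 0.03 to 0.10.

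Both called genes on chromosome 2 code for enzymes. AT2G44970 (chr2:18548813-18552171, minus strand; 9 exons), annotated as an alpha/beta-hydrolase, was at 7.41, 9.05, 6.72 and 5.65 FPKM in mctp3-2, against 29.4, 26.9, 25.7 and 23.7 FPKM in WT. The highest mctp3-2 library was below the lowest WT library by a wide margin. With means of 7.21 ± 1.42 and 26.4 ± 2.37 FPKM (mctp3-2 and WT; SD, n = 4 each) it was 3.67-fold lower, and the log2 difference was -1.75 ± 0.13 (SE; adjusted p = 1.73e-06). No other stretch of the genome resembled its transcript at the search settings.

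ALPHA-VPE (AT2G25940; chr2:11063301-11066184, minus strand; 8 exons), a vacuolar protease of the legumain family that matures other vacuolar proteins, is a low transcript in these roots. It was at 0.477, 0.322, 0.117 and 0.163 FPKM in mctp3-2, against 2.31, 2.83, 1.64 and 3.11 FPKM in WT. The groups did not overlap, and the means were 0.270 ± 0.164 and 2.48 ± 0.646 FPKM (mctp3-2 and WT; SD, n = 4 each). The log2 difference was -1.44 ± 0.16 (SE; adjusted p = 3.89e-04). For a gene this low, adding 1 to the FPKM makes that difference smaller than the 9.18-fold ratio of the means. ALPHA-VPE overlaps AT2G25930 on the other strand by 24 bases. The call was lost when replicates 1 and 2 were tested alone (adjusted p = 0.0964), and it missed the threshold by less than 0.001 when the mctp3-2 and WT libraries were fitted without the other genotypes. Without WT replicates 1 and 4 the adjusted p was 0.0265, and 0.0554 with the block.

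The bases around the starts of 4 genes are shown because these genes differed in the same direction wherever the mctp3-2 allele was present, AT2G44970 and ALPHA-VPE lower and AT5G35940 and SCE1 higher. Each line gives 250 bases before the annotated start in lower case and the first 20 transcribed bases in capitals, read 5′ to 3′ on the gene's strand from the RefSeq TAIR10.1 sequence.
AT2G44970 at chr2:18552152-18552421, minus strand: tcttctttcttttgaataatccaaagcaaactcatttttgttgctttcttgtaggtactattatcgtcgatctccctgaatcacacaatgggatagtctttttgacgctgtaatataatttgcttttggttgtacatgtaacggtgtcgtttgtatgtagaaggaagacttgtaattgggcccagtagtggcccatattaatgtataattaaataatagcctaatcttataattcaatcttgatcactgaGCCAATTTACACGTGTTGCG
ALPHA-VPE at chr2:11066165-11066434, minus strand: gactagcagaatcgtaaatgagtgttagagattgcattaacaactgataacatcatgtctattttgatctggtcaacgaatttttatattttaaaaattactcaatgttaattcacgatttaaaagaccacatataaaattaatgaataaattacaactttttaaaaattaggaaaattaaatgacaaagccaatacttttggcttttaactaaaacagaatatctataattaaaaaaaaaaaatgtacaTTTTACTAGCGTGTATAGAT
AT5G35940 at chr5:14090324-14090593, plus strand: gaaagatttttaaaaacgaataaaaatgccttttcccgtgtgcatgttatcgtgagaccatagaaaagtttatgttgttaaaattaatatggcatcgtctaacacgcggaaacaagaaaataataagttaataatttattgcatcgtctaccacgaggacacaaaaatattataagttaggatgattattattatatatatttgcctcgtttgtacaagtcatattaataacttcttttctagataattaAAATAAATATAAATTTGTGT
SCE1 at chr3:21430379-21430648, minus strand: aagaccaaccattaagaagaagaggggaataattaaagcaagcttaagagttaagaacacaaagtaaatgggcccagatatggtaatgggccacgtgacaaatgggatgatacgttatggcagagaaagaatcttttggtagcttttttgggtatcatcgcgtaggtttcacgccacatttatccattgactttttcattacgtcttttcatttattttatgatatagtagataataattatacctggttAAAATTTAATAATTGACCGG
The 250 bases before the SCE1 start lie wholly between SCE1 and MCTP3. The 4 windows are 23.7 to 35.2% G and C. The G-box CACGTG, which reads the same on both strands, occurs in the AT2G44970 window, within the capitals, and in the SCE1 window. It occurs in 7.96% of the 19168 windows of this length that could be read for tested genes. The W-box core TTGAC, searched on both strands, occurs in the windows of AT2G44970, ALPHA-VPE and SCE1 and in 47.7% of all windows. The TATA box core TATAAA, searched on both strands, occurs in those of ALPHA-VPE and AT5G35940 and in 48.7% of all windows. GNATATNC, the P1BS element of phosphate starvation genes, occurs in none of the 4 and in 5.77% of all windows.

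A pair of neighbours on chromosome 5 differed in opposite directions. AT5G35935 (chr5:14083388-14089891, minus strand), annotated as a pseudogene, was at 0.0701, 0.0777, 0.153 and 0.0839 FPKM in mctp3-2, against 3.62, 3.38, 4.49 and 4.48 FPKM in WT. The mctp3-2 libraries were close to 0, and the means of 0.0962 ± 0.0384 and 4.00 ± 0.579 FPKM (mctp3-2 and WT; SD, n = 4 each) differed 41.5-fold. The log2 difference was -2.18 ± 0.12 (SE; adjusted p = 5.11e-08). AT5G35940 (chr5:14090574-14093007, plus strand; 5 exons), annotated as a mannose-binding lectin, begins 682 bases away and is read in the opposite direction. It was at 43.9, 39.8, 73.2 and 79.6 FPKM in mctp3-2, against 10.2, 10.5, 25.6 and 22.4 FPKM in WT.

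The AT5G35940 groups did not overlap, and in both genotypes replicates 3 and 4 were above replicates 1 and 2. Its means were 59.1 ± 20.2 and 17.2 ± 7.99 FPKM (mctp3-2 and WT; SD, n = 4 each), a 3.44-fold ratio. The log2 difference of 1.77 had an SE of 0.33 (adjusted p = 0.162), and of 0.10 once the block took up the replicate number (adjusted p = 6.17e-08, and 4.55e-05 without WT replicates 1 and 4). Within replicates 1 and 2 the log2 difference was 1.91, and within replicates 3 and 4 it was 1.63. The longest similar stretch, 456 bases at 89.5% identity, lies in the lectin gene AT5G35950, which was at 0 in 7 of these 8 libraries and at 0.0629 FPKM in mctp3-2 replicate 2. The other 3 tested genes among the 5 on each side of AT5G35935 differed by -0.19 to 0.35 (log2) and were not called.

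**Figure D2:**
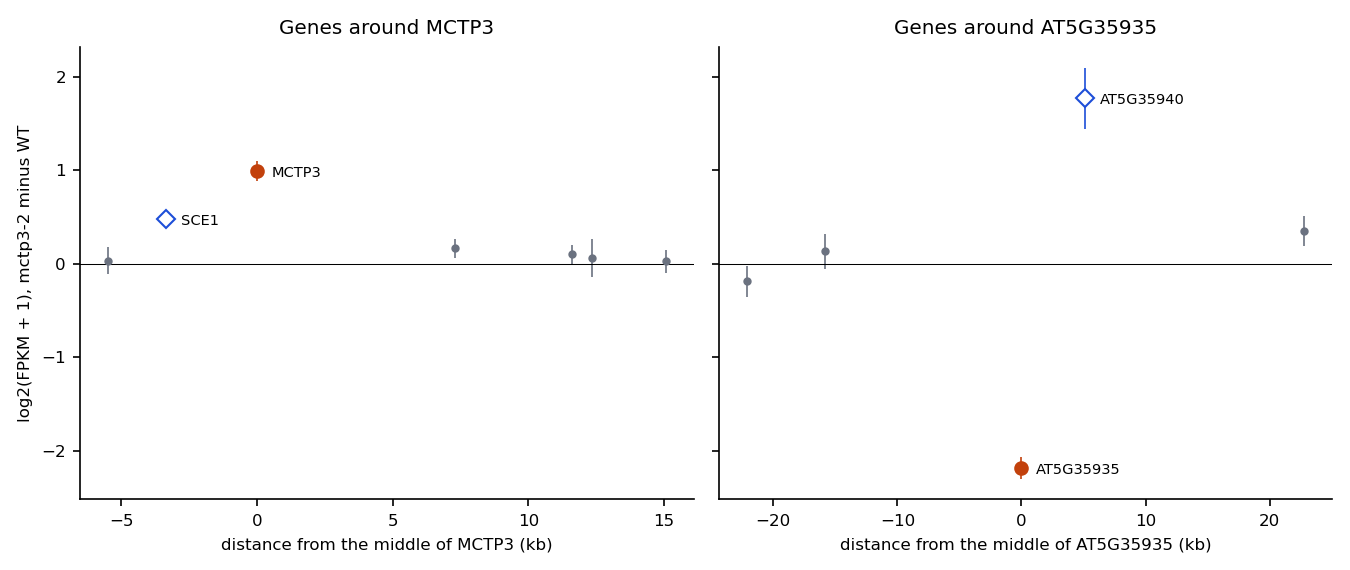
Difference in log2(FPKM + 1), mctp3-2 minus WT, with its SE (vertical), against distance in kb from the middle of MCTP3 (left) and of AT5G35935 (right) for the tested genes among the 5 on each side. Filled circles are called, open diamonds are called with the replicate block and not without it, and the remaining neighbours lie between -0.19 and 0.35.

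LAF1 (AT4G25560; chr4:13052503-13053742, plus strand) encodes MYB18, a transcription factor of far-red light signalling. It was at 9.94, 8.08, 5.33 and 8.11 FPKM in mctp3-2, against 15.3, 22.4, 10.2 and 12.7 FPKM in WT. The highest mctp3-2 library was just below the lowest WT library, and the genotype means were 7.87 ± 1.90 and 15.2 ± 5.27 FPKM (mctp3-2 and WT; SD, n = 4 each). The log2 difference was -0.84 (SE 0.24; adjusted p = 1.00) without the block and -0.84 (SE 0.13; adjusted p = 0.0164) with it. With the block the call was lost without mctp3-2 replicate 3 and without each of the 4 WT libraries, and the adjusted p was 0.27 without WT replicates 1 and 4 together. LAF1 overlaps AT4G25570 on the other strand by 82 bases, and whether counting used the strand is not given in the sources used here.

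Both AT5G24240 and AT4G08093 were low in every mutant genotype and high in WT. AT5G24240 (chr5:8230916-8234150, minus strand; 3 exons), annotated as a phosphatidylinositol 4-kinase gamma-like protein, was at 2.20, 2.46, 1.50 and 2.03 FPKM in mctp3-2, against 33.1, 40.9, 33.6 and 41.7 FPKM in WT. It was at 1.62 to 2.73 FPKM in mctp4-1 and at 1.23 to 2.34 FPKM in the double mutant. The log2 difference from WT, -3.65 ± 0.16 (SE; adjusted p = 3.82e-09), stood beside -3.62 for mctp4-1 and -3.74 for the double mutant. These 3 contrasts share the WT libraries. AT5G24240 overlaps AT5G24230 on the other strand by 49 bases. Means were 2.05 ± 0.405 FPKM in mctp3-2 and 37.3 ± 4.64 FPKM in WT (SD, n = 4 each).

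AT4G08093 (chr4:4990153-4991601, plus strand), annotated as a transcribed pseudogene, was at 0.0439, 0, 0.0386 and 0.0919 FPKM in mctp3-2, against 3.0, 2.26, 2.77 and 2.83 FPKM in WT. All 12 mutant libraries were at 0.224 FPKM or less and all 4 WT libraries at 2.26 FPKM or more. AT4G08093 passed the filter on low values through the WT libraries alone, so its entry into the test depended on their high values. Fitted by limma without that filter, it was also called (adjusted p = 5.72e-09). The log2 difference was -1.83 ± 0.13 (SE; adjusted p = 1.21e-06), beside -1.86 for mctp4-1 and -1.78 for the double mutant, again with the WT libraries in common. None of the 5 annotated genes on either side of it passed the filter on low values.

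The other two genes that the block added are noncoding RNAs that resemble each other. AT4G04223 (chr4:2036511-2037816, plus strand) was at 3.65, 7.18, 4.09 and 5.29 FPKM in mctp3-2, against 24.5, 26.8, 16.8 and 21.5 FPKM in WT. Its mctp3-2 libraries were all below WT, and the log2 difference was -1.97 (SE 0.33, adjusted p = 0.0625 without the block; SE 0.22, adjusted p = 0.00311 with it). Without the block it was called at pseudocounts of 0.1 and 0.5 (adjusted p = 0.0404 and 0.0488), after quantile normalization (0.0432) and with the mctp3-2 and WT libraries fitted alone (0.0111). AT5G38005 (chr5:15155067-15156088, plus strand) was at 45.3, 34.4, 28.2 and 22.9 FPKM in mctp3-2, against 61.5, 66.3, 53.7 and 49.3 FPKM in WT, and its log2 difference of -0.84 had an adjusted p of 1.00 without the block and 0.0408 with it. Of the 8 block fits that each left out 1 library, the one without mctp3-2 replicate 1 called AT5G38005. With the block and without WT replicates 1 and 4, neither was called (adjusted p = 0.163 for AT4G04223 and 0.67 for AT5G38005). The AT4G04223 transcript shares 310 bases at 99.4% identity with AT3G56210, and 274 bases of AT5G38005 are 92.7% identical to AT4G04223. Reads can be divided among such copies by the counting, so the levels of both are uncertain. AT3G56210 itself was at 22.2 to 24.2 FPKM in mctp3-2 and 22.9 to 27.0 FPKM in WT.

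**Figure D3:**
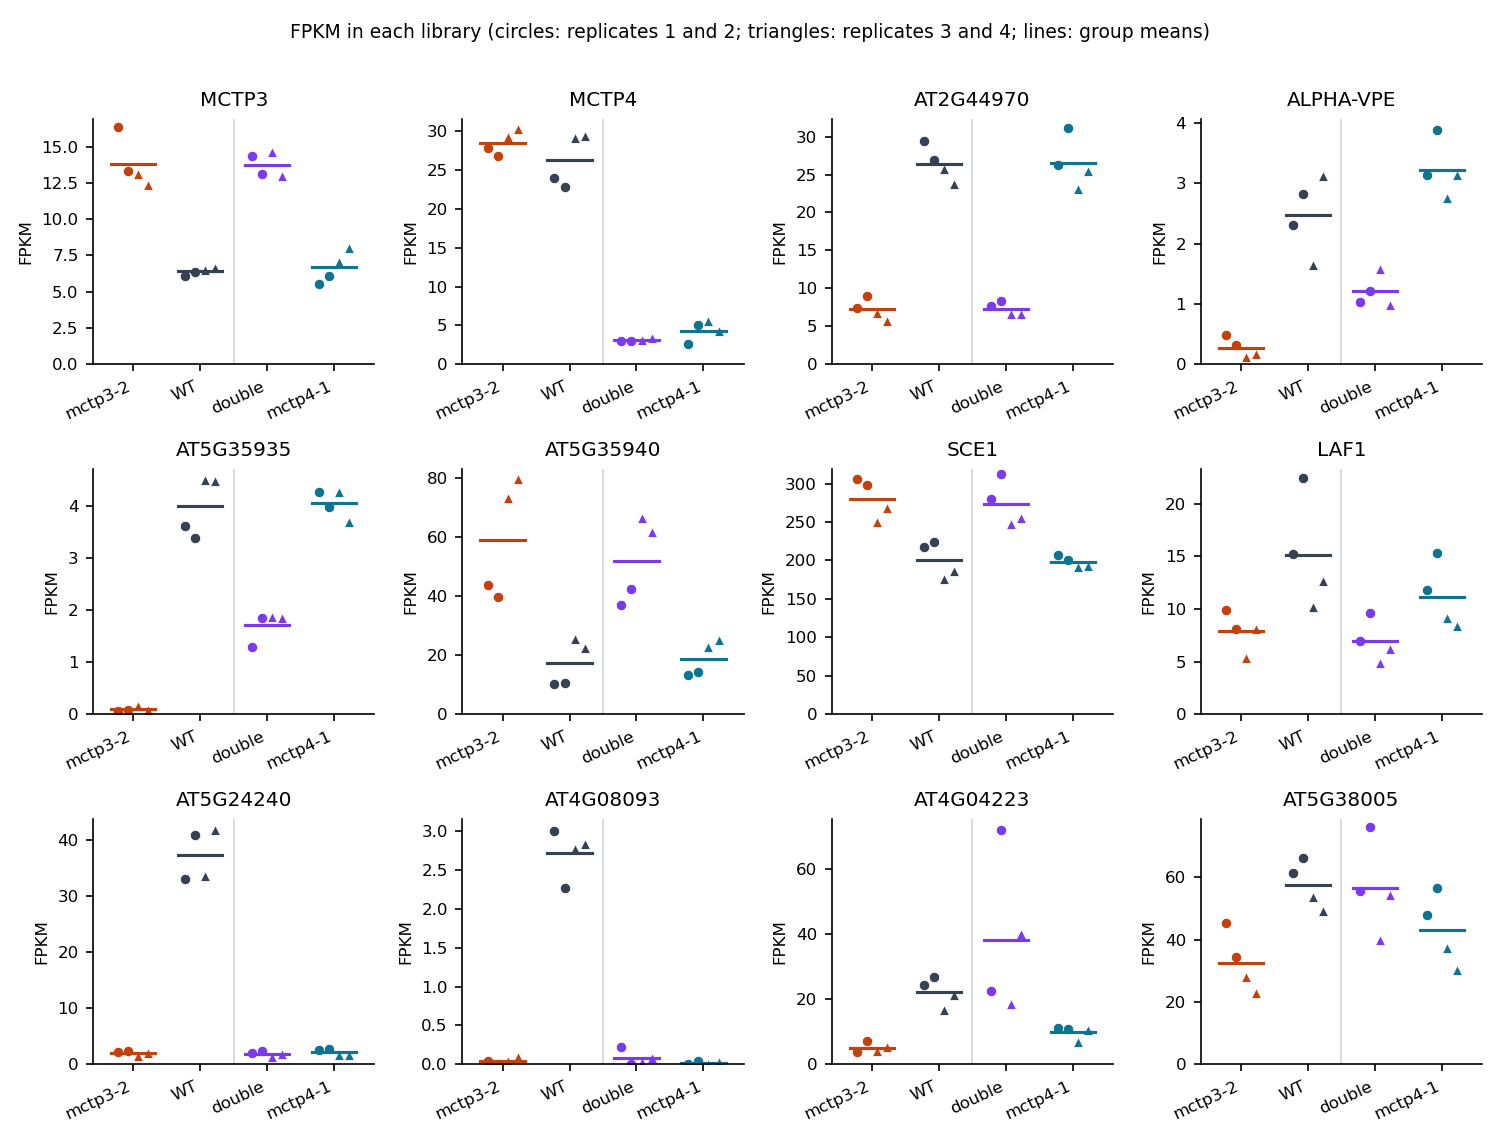
FPKM (vertical, linear from 0) in each of 4 libraries of mctp3-2, WT, double and mctp4-1 roots (horizontal) for MCTP3, MCTP4 and the other 10 genes called with or without the replicate block; circles are replicates 1 and 2, triangles replicates 3 and 4, and lines group means. AT2G44970 is near 7 FPKM in mctp3-2 and in the double mutant and near 26 FPKM in WT and in mctp4-1, while AT5G24240 and AT4G08093 are high in WT alone of the 4 genotypes.

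The allele could be examined again by setting the double mutant against mctp4-1, which differ by mctp3-2 alone according to the labels. The group means of this contrast come from libraries other than those of mctp3-2 and WT. Both contrasts were taken from the same fit over 16 libraries, so they share its estimate of the spread. This contrast called 12 genes (0.0624%), 6 higher and 6 lower (0.0312% each). With the block it called 60 (0.312%), 20 higher (0.104%) and 40 lower (0.208%). The 12 became 7 without mctp4-1 replicate 1 or 4, and the 60 became 30, 27 and 31 without mctp4-1 replicates 2, 3 and 4. MCTP3 was at 14.3, 13.1, 14.6 and 13.0 FPKM in the double mutant, against 5.53, 6.09, 7.05 and 8.03 FPKM in mctp4-1, a log2 difference of 0.95 ± 0.11 (SE; adjusted p = 7.75e-04). AT2G44970 was at 7.62, 8.37, 6.63 and 6.66 FPKM in the double mutant, against 26.3, 31.1, 23.1 and 25.5 FPKM in mctp4-1, and its log2 difference of -1.72 ± 0.13 (adjusted p = 3.01e-06) differed from that in the WT background by 0.03 ± 0.18. For both genes the groups stayed apart and the size of the change was the same within its error.

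ALPHA-VPE was at 1.04, 1.22, 1.58 and 0.986 FPKM in the double mutant, against 3.14, 3.88, 2.75 and 3.14 FPKM in mctp4-1. The fall was again called (log2 difference -0.94 ± 0.16, adjusted p = 0.0361), and the difference between the changes, 0.50 ± 0.22, was not (adjusted p = 1.00). AT5G35935 was at 1.3, 1.85, 1.87 and 1.85 FPKM in the double mutant, against 4.27, 3.98, 4.27 and 3.70 FPKM in mctp4-1. It too fell (log2 difference -0.90 ± 0.12, adjusted p = 0.0038), but by less than in the WT background: the double mutant kept levels that mctp3-2 lacked, and the difference of 1.28 ± 0.17 between the changes had an adjusted p of 0.00355.

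With the block, AT5G35940 (log2 difference 1.43 ± 0.10, adjusted p = 1.29e-06) and SCE1 (0.46 ± 0.06, adjusted p = 0.0032) also rose in the double mutant against mctp4-1. AT5G35940 was at 37.0, 42.2, 66.4 and 61.7 FPKM in the double mutant, against 13.1, 14.2, 22.6 and 25.2 FPKM in mctp4-1. SCE1 was at 280, 312, 248 and 255 FPKM in the double mutant, against 206, 201, 191 and 192 FPKM in mctp4-1. LAF1 differed by -0.61 ± 0.13 with the block and was not called (adjusted p = 0.0615). In all 3 genes the direction was that of mctp3-2 against WT.

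AT5G24240 and AT4G08093 did not change again: the double mutant and mctp4-1 differed by -0.12 ± 0.16 and 0.09 ± 0.13 (log2, SE). Both were already low in mctp4-1, at 1.62 to 2.73 FPKM and at 0.0417 FPKM or less. This contrast therefore had no room for a fall as large as that from WT, and it cannot serve as a repeat for them. The change in the WT background was larger at adjusted p-values of 1.09e-06 and 6.34e-05. AT4G04223 ran in opposite directions. It was at 22.7, 72.1, 18.6 and 40.3 FPKM in the double mutant, against 11.1, 10.9, 6.98 and 10.5 FPKM in mctp4-1, and the difference between the log2 changes was 3.65 ± 0.46 (adjusted p = 0.00355). For AT5G38005 that difference was 1.22 and was called with the block alone (adjusted p = 0.0316).

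**Figure D4:**
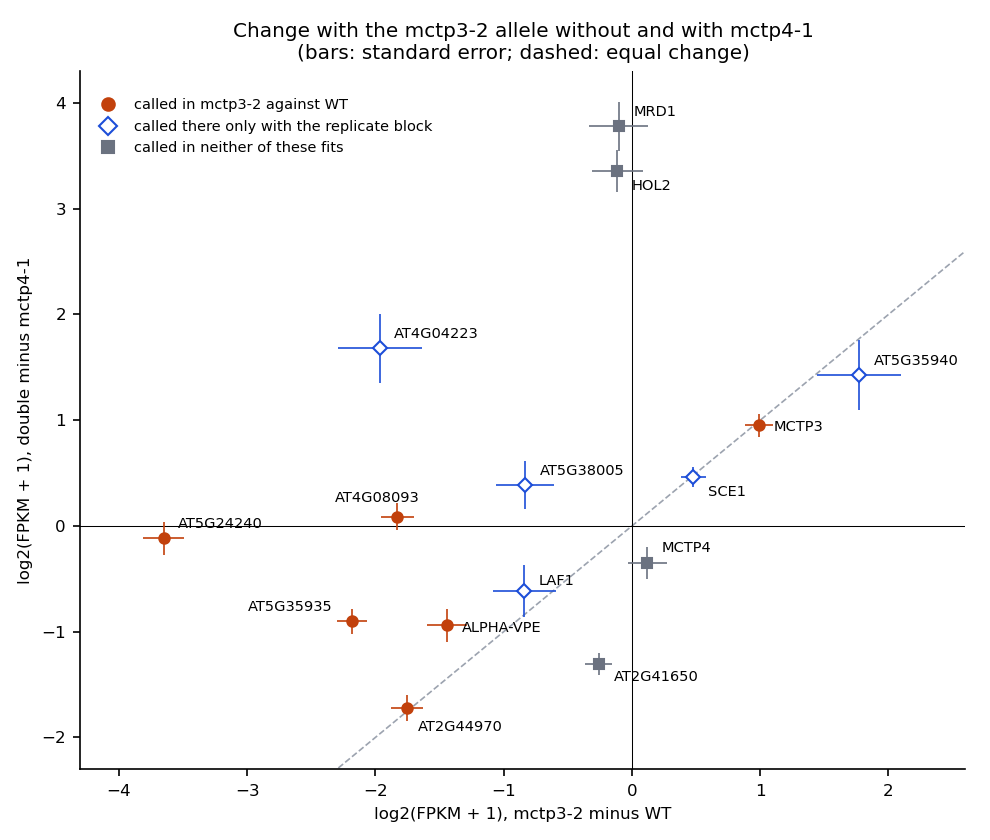
Difference in log2(FPKM + 1) with its SE for mctp3-2 minus WT (horizontal) against that for double minus mctp4-1 (vertical), for MCTP3, MCTP4, the other 10 genes called with or without the block, and MRD1, HOL2 and AT2G41650. MCTP3, SCE1 and AT2G44970 lie near the dashed line of equal change, AT5G24240 and AT4G08093 lie near 0 on the vertical axis, and MRD1 and HOL2 are high on it and near 0 on the horizontal one.

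Some genes were called in the double mutant against mctp4-1 and not in mctp3-2 against WT. MRD1 (AT1G53480) was at 0, 0, 0.917 and 0.373 FPKM in mctp3-2, against 0.766, 0.541, 0.289 and 3.99e-05 FPKM in WT, while in the double mutant it was at 12.9 to 19.5 FPKM, against 0.411 FPKM or less in mctp4-1. HOL2 (AT2G43920), a methyltransferase, was at 0.105, 0.236, 0.243 and 0.184 FPKM in mctp3-2, against 0.144, 0, 0.935 and 0.245 FPKM in WT, and at 8.87 to 16.2 FPKM in the double mutant. The change with the allele differed between the backgrounds by 3.88 ± 0.33 for MRD1 (adjusted p = 2.20e-05) and by 3.47 ± 0.28 for HOL2 (adjusted p = 2.04e-05). Both genes passed the filter on low values through the double libraries alone, so their entry into the test depended on the high values there.

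AT2G41650, of unknown function, was at 302, 301, 281 and 263 FPKM in mctp3-2, against 377, 366, 336 and 298 FPKM in WT. It was below WT at every replicate number though the groups overlapped, and it was at 122 to 159 FPKM in the double mutant, against 290 to 369 FPKM in mctp4-1, with a difference between the changes of -1.05 ± 0.15 (adjusted p = 0.0103). AT2G41640, a glycosyltransferase of family 61, and AT1G21520 were higher in the double mutant than in mctp4-1 by 1.13 and 1.86 (log2), and differed between mctp3-2 and WT by 0.36 ± 0.15 and 0.26 ± 0.28 without being called. The annotations of AT2G41640 and AT2G41650 overlap on the same strand, so reads there can be given to either gene and both levels are uncertain. CYP83A1 and MAM1, enzymes of aliphatic glucosinolate synthesis, were lower in the double mutant, with differences of -1.36 and -1.09, and differed between mctp3-2 and WT by 0.09 ± 0.22 and -0.13 ± 0.18. In all, 7 genes (0.0364%) had changes that differed between the backgrounds, 6 above 0 (0.0312%) and 1 below (0.0052%). With the block there were 10 (0.052%), 7 above 0 (0.0364%) and 3 below (0.0156%).

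Across all 19239 genes the log2 difference for mctp3-2 minus WT and that for double minus mctp4-1 correlated at 0.109 (Pearson) and 0.115 (Spearman), with genes that are not independent replicates. In the contrast of the double mutant with mctp4-1, 500 genes (2.6%) had an unadjusted p under 0.05. Of the 355 genes at an unadjusted p under 0.05 in mctp3-2 against WT, 204 (57.5%) had the same direction in the other contrast, beside 55.6% of all genes. Of these 355, 34 also had an unadjusted p under 0.05 with the same direction there, beside 294 of all 19239 genes. Of the 11 genes called with the block, 8 had the same direction and 7 of these an unadjusted p under 0.05.

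Set directly against mctp4-1, mctp3-2 differed in 5 genes (0.026%), 2 higher (0.0104%) and 3 lower (0.0156%). MCTP4 and MCTP3 were higher in mctp3-2, by 2.51 ± 0.15 and 0.95 ± 0.11 (log2, SE), and AT2G44970, ALPHA-VPE and AT5G35935 were lower, with differences of -1.75 ± 0.13, -1.74 ± 0.16 and -2.20 ± 0.12. With the block AT5G35940 (1.59 ± 0.10) and SCE1 (0.50 ± 0.06) were added as higher, which made 7 (0.0364%), 4 higher (0.0208%) and 3 lower (0.0156%). AT5G24240 and AT4G08093 differed between the single mutants by -0.03 ± 0.16 and 0.04 ± 0.13.

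The libraries numbered 1 and 2 deviated from their group means in the opposite direction to those numbered 3 and 4, and the comparison was therefore repeated within each pair of numbers. Both repeats called 7 genes (0.0364%). The difference between the pairs was called for 0 of 19239 genes by limma with and without the block, with 750 genes (3.9%) at an unadjusted p under 0.05 without the block and 779 (4.05%) with it. Without WT replicate 1 it was called for 1 gene. MCTP3 differed by 1.13 within replicates 1 and 2 and by 0.86 within 3 and 4, AT2G44970 by -1.66 and -1.84, and AT5G24240 by -3.50 and -3.80.

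The precision behind these counts depended on level. The median SE of a log2 difference between mctp3-2 and WT was 0.14. For 18252 genes (94.9%) the 95% interval of the difference in log2(FPKM + 1) stayed within 1 of 0. For the 4344 genes with a mean over all 16 libraries under 5 FPKM the share was 88.3%, and for those above 20 FPKM it was over 97%. Adding 1 shrinks the difference of low genes, so for them such an interval can hold changes in FPKM larger than 2-fold. A log2 difference beyond 1 in size was seen for 47 genes, 24 higher and 23 lower. Of these, 5 were called, and 33 of the other 42 were listed at 0 in at least 1 library. The 6 genes called all had a mean under 20 FPKM over all 16 libraries, though AT5G24240 and AT2G44970 averaged 37.3 and 26.4 FPKM in WT.

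Several genes just outside the threshold were looked at after their values were seen. AT1G53860, a remorin family protein, was at 1.81, 1.21, 2.32 and 1.13 FPKM in mctp3-2, against 3.45, 4.14, 3.75 and 3.71 FPKM in WT (log2 difference -0.88, adjusted p = 0.0984 without and 0.0529 with the block), and its mctp4-1 libraries were at 1.57 to 1.69 FPKM. CBL8, a calcineurin B-like calcium sensor, was at 2.41, 5.63, 2.20 and 3.26 FPKM in mctp3-2, against 0.330, 1.75, 0.453 and 0.537 FPKM in WT (1.31, adjusted p = 0.480 and 0.0917), but at 0.5 to 1.37 FPKM in the double mutant and 0.289 to 1.29 FPKM in mctp4-1. AT1G67105, a noncoding RNA, was at 3.62 to 4.93 FPKM in mctp3-2 and 6.92 to 12.7 FPKM in WT (-0.92, adjusted p = 1.00 and 0.0748). The groups did not overlap in any of the 3.

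ZIP3, a zinc transporter, was at 13.9, 19.6, 13.8 and 23.2 FPKM in mctp3-2, against 26.2, 24.6, 21.9 and 24.3 FPKM in WT, with overlap at replicate 4. It was not called there (-0.47, adjusted p = 1.00 without and 0.720 with the block). In the double mutant against mctp4-1 the difference was -0.77, which was called with the block (adjusted p = 0.0129). AT5G15725 was at 8.04 to 12 FPKM in mctp3-2 and 12.3 to 19.1 FPKM in WT (-0.56, not called), and the difference was -0.68 in the double mutant against mctp4-1 (adjusted p = 0.0375 with the block). AT1G19070, an F-box gene, was listed at 0 in all 4 WT libraries and at 16.9, 5.46, 4.00 and 6.63 FPKM in mctp3-2, but it also ranged from 0 to 29.8 FPKM in mctp4-1.

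Lists of genes for plasmodesmata, cell types, hormones, stress and nutrition were read for the same comparison: 36 lists with 426 distinct genes, of which 390 passed the filter on low values. MCTP3 was the only member called, with or without the block (0.0312 and 0.0572% of all genes). The median log2 difference was 0.06 over the members tested and 0.05 over all genes, of which 65.5% lay above 0 as deposited and 49.2% after scaling by the median of ratios. Counts above and below 0 are therefore given beside that share.

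**Figure D5:**
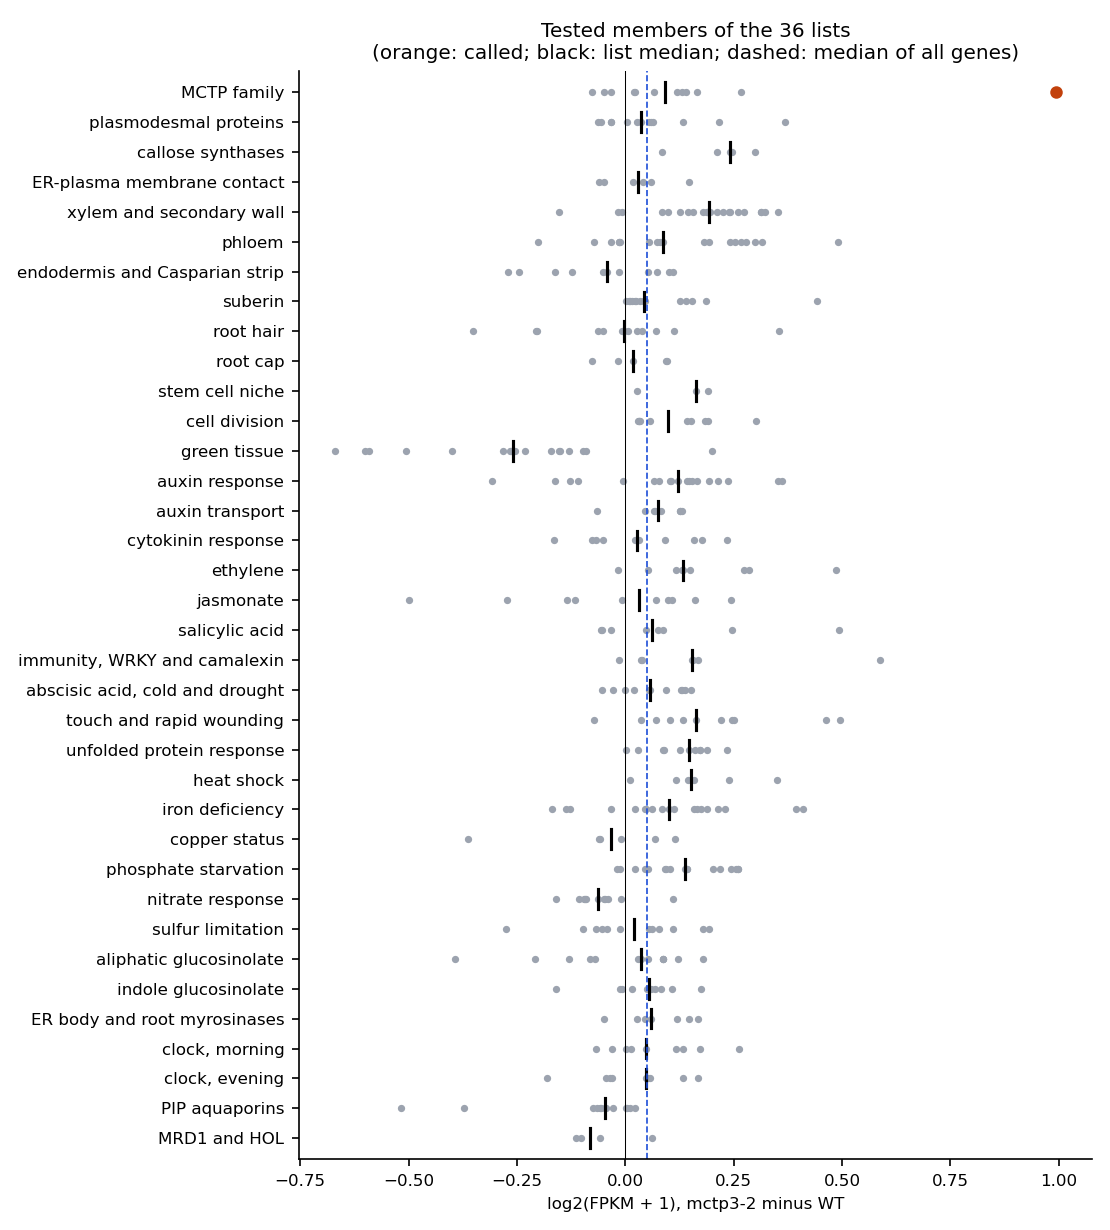
Difference in log2(FPKM + 1), mctp3-2 minus WT (horizontal), for the tested members of 36 gene lists (rows), each a point; black ticks are list medians and the dashed line is the median of all genes, 0.05. MCTP3, at 0.99, is the only member called, green tissue markers lie mostly below 0 and xylem genes mostly above.

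Among 16 MCTP genes, 12 were tested, and MCTP10 to MCTP13 did not pass the filter. Besides MCTP3 the largest difference was that of MCTP2 (3.72 ± 0.26 FPKM in mctp3-2 and 2.96 ± 0.69 FPKM in WT; SD, n = 4 each), 0.27 ± 0.17 on the log2 scale, and QKY, which acts in organ shape and root hair patterning, differed by 0.13 ± 0.10. Of 13 tested plasmodesmal proteins 9 were above and 4 below 0 (median 0.04). PDLP1, a receptor-like protein of the channel, was at 2.12 ± 0.88 FPKM in mctp3-2 and 1.4 ± 0.64 FPKM in WT (log2 difference 0.37 ± 0.28). All 5 callose synthases lay above 0 (median 0.24), with CALS7, the sieve plate enzyme, at 2.75 ± 0.37 FPKM in mctp3-2 and 2.08 ± 0.62 FPKM in WT. That median was 0.42 within replicates 1 and 2 and 0.01 within 3 and 4. The 6 genes for contacts between endoplasmic reticulum and plasma membrane had a median of 0.03, with the tether SYT1 at 0.15 ± 0.14.

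Of 22 xylem and secondary wall genes, 19 lay above and 3 below 0, with a median of 0.19 (0.23 within replicates 1 and 2, 0.17 within 3 and 4) and none called. In 5 of them, IRX6, LAC4, LAC17, CESA8 and XCP2, the 4 mctp3-2 libraries were above all WT libraries, beside 1.51% of all genes. Both were counted on FPKM as deposited. IRX6, a COBRA-like protein of secondary wall cellulose, averaged 15.3 ± 1.0 FPKM in mctp3-2 and 11.8 ± 0.51 FPKM in WT (SD, n = 4 each), a log2 difference of 0.35 ± 0.08 (SE; adjusted p = 1.00 without and 0.244 with the block). In the double mutant against mctp4-1 IRX6 differed by 0.47, called with the block (adjusted p = 0.00957), and the list had a median of 0.23. LAC4, a laccase of lignin formation, averaged 46.7 ± 2.3 FPKM in mctp3-2 and 39.4 ± 2.2 FPKM in WT (SD, n = 4 each).

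Beside this, 17 of 18 green tissue markers lay below 0 (median -0.26; -0.12 within replicates 1 and 2 and -0.37 within 3 and 4), with none called and the ranges of their summed FPKM overlapping, as given above. LHCA2, an antenna protein, averaged 5.83 ± 1.9 FPKM in mctp3-2 and 9.45 ± 3.3 FPKM in WT (SD, n = 4 each). The part of tissue composition in either list was not tested, and in bulk roots fewer cells of a type and less RNA per cell cannot be told apart.

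For the other cell types no member was called. Phloem genes had 13 of 19 above 0 (median 0.09, and 0.23 within replicates 1 and 2 and -0.02 within 3 and 4). CLE45, a peptide that holds back protophloem formation, averaged 6.05 ± 1.6 FPKM in mctp3-2 and 3.96 ± 0.65 FPKM in WT, and BAM3, its receptor, 41.6 ± 1.8 FPKM in mctp3-2 and 35.0 ± 2.1 FPKM in WT (SD, n = 4 each), the second without overlap. Genes of the endodermis and Casparian strip had 4 of 11 above 0 (median -0.04), with CASP1 at 210 ± 20 FPKM in mctp3-2 and 250 ± 33 FPKM in WT. Their median was -0.24 within replicates 1 and 2 and 0.07 within 3 and 4. All 15 suberin genes lay above 0, beside 65.5% of all genes as deposited. Most of the 15 did so by little (median 0.04, beside 0.05 over all genes), and MYB41, a regulator of suberin, differed by 0.44 ± 0.23. The suberin median was -0.01 within replicates 1 and 2 and 0.14 within 3 and 4. Medians were 0.00 for 13 root hair genes, 0.02 for 5 root cap genes, 0.16 for 3 stem cell niche genes and 0.10 for 10 cell division genes. In that order they were -0.07, 0.15, 0.18 and 0.05 within replicates 1 and 2. Within replicates 3 and 4 they were 0.08, -0.08, -0.04 and 0.08.

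No hormone list held a called gene. Of 19 auxin response genes 14 lay above 0 (median 0.12), and GH3.1, which conjugates auxin to amino acids, averaged 4.27 ± 0.36 FPKM in mctp3-2 and 3.12 ± 0.48 FPKM in WT (SD, n = 4 each) without overlap. Its log2 difference was 0.36 ± 0.12. Medians were 0.08 for 8 auxin transport genes, 0.03 for 10 cytokinin response genes, 0.13 for 9 ethylene genes, 0.03 for 10 jasmonate genes, 0.06 for 8 salicylic acid genes and 0.06 for 11 abscisic acid, cold and drought genes. SAG101, which signals with EDS1 in immunity, averaged 6.77 ± 0.92 FPKM in mctp3-2 and 4.64 ± 1.5 FPKM in WT.

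In the stress lists the 7 tested immunity, WRKY and camalexin genes had a median of 0.15, which was 0.39 within replicates 1 and 2 and -0.17 within 3 and 4. WRKY46, a transcription factor of defence, averaged 1.03 ± 0.33 FPKM in mctp3-2 and 0.348 ± 0.23 FPKM in WT without overlap (log2 difference 0.59 ± 0.24, not called). In the double mutant against mctp4-1 WRKY46 was higher by 1.36, which was called with the block (adjusted p = 0.00978). The list had a median of -0.29 in that contrast, the opposite direction. Medians were 0.16 for 11 touch and rapid wounding genes, 0.15 for 11 genes of the unfolded protein response and 0.15 for 6 heat shock genes. In that order they were 0.08, 0.12 and -0.02 within replicates 1 and 2, and 0.28, 0.16 and 0.36 within 3 and 4.

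In the nutrition lists 15 of 17 phosphate starvation genes lay above 0 (median 0.14). AT4 (AT5G03545), an RNA of phosphate starvation that binds the microRNA miR399, was at 335, 282, 327 and 267 FPKM in mctp3-2, against 266, 243, 251 and 246 FPKM in WT. All 4 mctp3-2 libraries were above the WT libraries, the lowest of them by little, and the log2 difference of 0.26 ± 0.09 was not called (adjusted p = 1.00). In the double mutant against mctp4-1 AT4 rose by 0.58 ± 0.09 (adjusted p = 0.0303), while the list had a median of 0.05. Iron deficiency genes had 15 of 19 above 0 (median 0.10), with BHLH38, a regulator of iron uptake, at 6.32 ± 0.90 FPKM in mctp3-2 and 4.68 ± 1.4 FPKM in WT. Medians were -0.03 for 6 copper genes, -0.06 for 11 nitrate response genes and 0.02 for 12 sulfur limitation genes.

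Aliphatic glucosinolate genes had a median of 0.04 over 13 tested genes in mctp3-2 against WT, and of -0.81 in the double mutant against mctp4-1. Medians were 0.05 for 10 indole glucosinolate genes, 0.06 for 7 genes of the ER body and root myrosinases, 0.05 for 9 morning clock genes, 0.05 for 9 evening clock genes and -0.08 for the 4 genes of the list with MRD1 and HOL2. Of 13 PIP aquaporins 9 lay below 0 (median -0.05), and PIP2;6 averaged 9.63 ± 0.35 FPKM in mctp3-2 and 13.0 ± 3.2 FPKM in WT (SD, n = 4 each) without overlap, a log2 difference of -0.37 ± 0.14 that was not called.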

How the data were processed

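The labels' protocols describe polyadenylated RNA libraries from root RNA. The authors deposited FPKM per gene for 16 libraries; per the submitters' processing notes, HISAT2 and Cufflinks were used with TAIR10. Their versions and the strand setting are not given there. FPKM below 1e-06 were taken as 0. Library totals are not held in FPKM, whole reads could not be recovered (steps within 0.05 on the log2 scale), and count tests were not run.

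The main model, from limma 3.58.1 (R 4.3.3), took log2(FPKM + 1) and 1 mean for each genotype over 16 libraries, with trend and robust moderation. Tests were 2-sided with Benjamini-Hochberg adjustment over 19239 genes, and an adjusted p under 0.05 was called. SDs are between libraries. The fit was tested on simulated data. A fit with the replicate number as a block was an alternative. Deviations of mctp3-2 and WT libraries from their group means correlated at 0.412 to 0.485 for the 4 same-numbered pairs, each above 0.1. Pairing 1 with 2 or 3 with 4 across the genotypes gave 0.218 to 0.372, lower but also above 0.1. Pairing 1 or 2 with 3 or 4 gave -0.517 to -0.242. Deviations from a group mean sum to 0, so positive values had to be offset by negative ones. Much of the pattern is thus a split of 1 and 2 from 3 and 4, and pairing by number adds to it by less. The sample descriptions carry the same set of codes in every genotype, 1 for each replicate number, without saying what a code stands for. The use of the number as a block therefore rests on these correlations. Other alternatives were pseudocounts, filters, scalings, the libraries in the fit and leaving out each library. Transcripts were searched against the genome with blastn 2.17.0, keeping matches of 80% identity or more. Positions are from TAIR10.1, and 32826 genes matched it; no coordinates were converted.

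Genes named are MCTP3, MCTP4, all genes called with or without the block, up to 5 or 10 of the largest or smallest-p calls of the other contrasts, and for each list the called members and up to 2 members of smallest p; others were chosen after their values were seen. The members and lists were chosen with earlier results of these data known, and the list with MRD1 and HOL2 came from them.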

Additional observations from a re-analysis of the deposited data

Results flagged for a closer look

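A library stood apart from the other 3 of its group in 2 groups of 4. The 116 groups considered were those of the named genes and of library totals. Fewer than 116 were checked, since groups of a gene with a mean under 1 FPKM were passed over. Chance alone marks about 1 in 20 of those checked. AT5G35935 was low in double replicate 1 (1.3 FPKM, beside 1.85 to 1.87 FPKM), and AT4G04223 was low in mctp4-1 replicate 3 (6.98 FPKM, beside 10.5 to 11.1 FPKM).

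The change with the mctp3-2 allele differed between the mctp4-1 and WT backgrounds, by the test of the difference itself, in 8 named genes. On the log2 scale the change in mctp4-1 minus that in WT was 1.92 for AT4G08093, 3.53 for AT5G24240, 1.28 for AT5G35935, 3.65 for AT4G04223, 3.88 for MRD1, 3.47 for HOL2 and -1.05 for AT2G41650. For AT5G38005 it was 1.22 and was called with the replicate block alone. AT4G08093 and AT5G24240 were already low in mctp4-1, which left no room there for a fall as large as that from WT. AT4G08093 passed the filter on low values through WT libraries alone, and MRD1 and HOL2 through double libraries alone.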

How the results depend on the processing

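For mctp3-2 against WT, a filter at 5 FPKM called 3 genes (fewer genes were tested), the replicate block 11 and the block with median of ratios scaling 12, beside 6. Leaving out each library called 6 to 7, and with the block 10 or 11 (9 without WT replicate 1). Chosen after seeing the data, leaving out both WT libraries high in noncoding FPKM called 7, or 6 with the block, where MCTP3, ALPHA-VPE, SCE1, AT4G04223, LAF1 and AT5G38005 were not called (adjusted p = 0.0702, 0.0554, 0.195, 0.163, 0.27 and 0.67). For the double mutant against mctp4-1 the block called 60, beside 12, and leaving out each library called 7 to 12. With the block, a choice made after seeing the data, that gave 61, 69, 48 and 44 without double replicates 1 to 4, and 41, 30, 27 and 31 without mctp4-1 replicates 1 to 4. For mctp3-2 against mctp4-1 the filter at 5 FPKM called 3, beside 5. The difference between pairs of replicates was called for 1 gene at a pseudocount of 0.1, 1 without a filter, 2 with the libraries of mctp3-2 and WT alone and 0 to 1 with a library left out, beside 0. With the block the total called was 10, beside 7, for the difference between backgrounds and 7, beside 5, for mctp3-2 against mctp4-1. The cause of these shifts was not tested. AT2G44970, AT5G24240, AT5G35935 and AT4G08093 were called in all 29 or 30 alternatives in which they were tested, MCTP3 in 29 of 30 and ALPHA-VPE in 26 of 29. Neither MCTP3, MCTP4 nor any of the 10 other genes called with or without the block changed direction between mctp3-2 and WT in these alternatives; other named genes were not followed through them, and MRD1 (-0.72 and 0.52) and HOL2 (0.13 and -0.36) had opposite signs within replicates 1 and 2 and within 3 and 4. The difference between backgrounds uses all 4 genotypes, so it has no fit with fewer groups. Read totals are unknown and depth was only roughly estimated, and genes near 0 FPKM carry the widest intervals.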
